A study of Mus musculus with 6 samples.

Results

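The genes described here are the IL-33 receptor gene Il1rl1 and 9 genes that are often read together with it in regulatory T cells (Tregs) of non-lymphoid tissues and in type 2 immunity: the transcription factor genes Gata3, Pparg, Rora and Ahr, the decoy receptor gene Il1r2, the growth factor gene Areg and the cytokine genes Il4, Il5 and Il13. The 10 genes were taken by name from the 38924 rows of the deposited tables, and all 10 were found. RNA had been sequenced from mouse CD4+CD25+ T cells, a fraction of CD4+ T cells rich in Tregs, sorted from spleen and mesenteric lymph nodes by surface ILT3 into positive (ILT3+) and negative (ILT3-) fractions. ILT3 is an inhibitory receptor best known from antigen-presenting cells. Both groups came from untreated wild-type (WT) mice, male and female, aged 10 to 16 weeks, with 3 samples per group, and no transgene, deletion or drug was part of the design. The comparison asks how these genes differ between CD4+CD25+ T cells that carry ILT3 and those that do not. The labels do not say whether a sample is 1 animal or a pool, nor whether different samples came from different animals. The p-values therefore rest on the spread between these 6 samples, part of which may be technical.

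IL-33 is an alarmin that damaged barrier cells and stromal cells release. It binds ST2, the product of Il1rl1, which pairs with the shared coreceptor IL1RAP and signals through MYD88 and IRAK kinases to NF-kB. ST2 marks Th2 cells, group 2 innate lymphoid cells, mast cells and a share of Tregs. GATA3 drives the Th2 fate and is also used by Tregs of barrier tissues. PPARG is known from Tregs of visceral fat, RORA from Tregs of skin, and AHR, a receptor for small dietary and microbial ligands, from lymphocytes of the gut. AREG is an epidermal growth factor receptor ligand that such cells release in tissue repair, and IL-4, IL-5 and IL-13 are the classical type 2 cytokines.

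Promoter sequences are shown for the receptor genes Il1rl1 and Il1r2 and for the cytokine genes Il5 and Il13, because GATA factors are among the proteins described and their short recognition word can be searched for. Each is the 250 bases before a RefSeq start site, on the build GRCm38.p6 and on the strand of the gene. Capitals mark the word AGATAA, also with T for its opening A or G for its closing A, on either strand, so that reverse complements are in capitals too.
Il1rl1, the more distant start, plus strand, chr1:40429320-40429569: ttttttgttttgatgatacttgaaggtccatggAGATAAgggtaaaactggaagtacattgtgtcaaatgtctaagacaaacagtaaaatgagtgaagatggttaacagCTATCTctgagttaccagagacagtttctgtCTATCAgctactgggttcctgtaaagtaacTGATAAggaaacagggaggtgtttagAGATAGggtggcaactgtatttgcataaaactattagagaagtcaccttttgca
Il1rl1, the nearer start, plus strand, chr1:40439379-40439628: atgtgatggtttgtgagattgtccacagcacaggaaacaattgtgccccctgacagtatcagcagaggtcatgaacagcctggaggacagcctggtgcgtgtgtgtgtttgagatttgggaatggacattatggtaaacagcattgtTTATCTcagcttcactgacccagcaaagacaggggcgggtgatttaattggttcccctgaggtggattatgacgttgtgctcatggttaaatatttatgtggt
Il1r2, plus strand, chr1:40085843-40086092: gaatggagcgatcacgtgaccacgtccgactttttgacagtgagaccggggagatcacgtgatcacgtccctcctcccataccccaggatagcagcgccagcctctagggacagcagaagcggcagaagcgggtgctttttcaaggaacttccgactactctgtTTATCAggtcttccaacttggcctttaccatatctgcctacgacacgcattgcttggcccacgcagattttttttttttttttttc
Il5, plus strand, chr11:53720544-53720793: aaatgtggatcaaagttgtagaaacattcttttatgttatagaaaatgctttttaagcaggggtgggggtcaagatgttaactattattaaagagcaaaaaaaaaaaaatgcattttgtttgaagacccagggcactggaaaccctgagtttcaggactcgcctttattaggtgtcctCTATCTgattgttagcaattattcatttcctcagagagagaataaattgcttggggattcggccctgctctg
Il13, minus strand, chr11:53634703-53634952: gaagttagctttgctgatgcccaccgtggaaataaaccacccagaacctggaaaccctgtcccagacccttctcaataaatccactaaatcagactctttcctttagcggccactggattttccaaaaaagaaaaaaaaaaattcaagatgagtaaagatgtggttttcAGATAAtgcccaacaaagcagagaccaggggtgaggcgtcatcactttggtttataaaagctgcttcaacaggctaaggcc

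The window before the more distant Il1rl1 start held 5 such matches, at 217, 141, 110, 80 and 54 bases before the start, and none of them overlapped. Of 32851 RefSeq windows of the same length 26.5% held at least 1 match, and 14 (0.0426%) held 5 or more. The nearer Il1rl1 start lies 10059 bases downstream and its window held 1 match. Of the 10 genes 9 had a window (Ahr had no entry), 13 windows in all, and 7 windows of 6 genes held a match: Il1rl1, Il1r2, Rora, Il4, Il5 and Il13. The windows of Gata3, Pparg and Areg held none. The word AGGTCA, which ROR proteins and other nuclear receptors recognise, was in 3 of the 13 windows (of Il1rl1 and Pparg), against 14.0% of all windows. The AHR core word GCGTG was in 4 of the 13 (of Il1rl1, Pparg, Rora and Il1r2), against 28.2% of all windows. The matches describe the letters of these windows, and no binding was measured. The tables count reads per gene, so which Il1rl1 start was used was not analysed here.

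The libraries held 9334370 to 13648274 total gene reads, which are exon plus intron reads, and values below are CPM (counts per 1e+06 of these reads), with library sizes scaled by TMM factors. edgeR's quasi-likelihood test, with Benjamini-Hochberg adjustment over 13694 tested genes, called 316 of them at an adjusted p of 0.05 (2.31%), 269 higher in ILT3+ cells (1.96%) and 47 lower (0.343%). The ILT3 gene is named Lilrb4 in the files, a row over neighbouring gene copies whose reads cannot be told apart. It had a mean of 4.46 ± 1.29 against 332 ± 65.8 CPM (ILT3- against ILT3+ cells; SD, 3 libraries each) and a log2 fold change of 6.20 with an SE of 0.31 (adjusted p = 0.000327, edgeR). The groups' libraries did not overlap in 20.2% of tested genes, in 11.4% with ILT3+ higher. An unadjusted p under 0.05 was reached by 13.8%. Genes called higher in ILT3+ cells numbered 63 and 27 without ILT3- sample 2 or 3. Without ILT3+ sample 2 or 3 they numbered 51 and 56. The sample numbers 1 to 3 occur in both groups and were taken to pair the samples, from the data and not from the labels. With the number as a block edgeR called 932 genes (6.81%), 573 of them higher (4.18%), and on exon reads 2.05% of tested genes without and 6.07% with the block. The deviations of the samples numbered 1 from their group means correlated at 0.454 with each other. With those of the samples numbered 2 and 3 of the other group they correlated at -0.357 to -0.296. The 3 deviations of a group cancel for each gene, so a positive value for the same number forces negative ones among the crossed pairs. ILT3+ sample 1 also held 2173 CPM summed over 19 macrophage markers, against 195 and 209 CPM in the other ILT3+ samples. Foxp3, the defining Treg transcription factor gene, had 862 ± 233 against 861 ± 127 CPM (ILT3- against ILT3+; SD, n = 3). In bulk RNA, a larger share of cells of a type and more RNA per cell cannot be told apart.

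Of the 10 genes, Il1rl1 was the one called between ILT3+ and ILT3- cells, and it was higher in ILT3+ cells. Rora, Il1r2, Pparg and Ahr had fold changes of 3.14 to 8.32 without passing the test, and passed it when the sample number was a block. Gata3 and Areg passed in neither fit. The cytokine genes Il4, Il5 and Il13 did not pass the expression filter and were not called with no filter either. The fits called 1 of 10 genes without and 5 of 10 with the block, where 2.31% and 6.81% of all tested genes were called. Of the 7 that were tested, all but Areg had ILT3+ values above all ILT3- values in total gene reads, where 11.4% of all tested genes did. On exon reads the groups also overlapped for Ahr. Pparg was above the bound of the expression filter in all 3 ILT3+ but 1 of 3 ILT3- libraries, so its entry into the test rested mainly on the ILT3+ group.

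**Figure D1:**
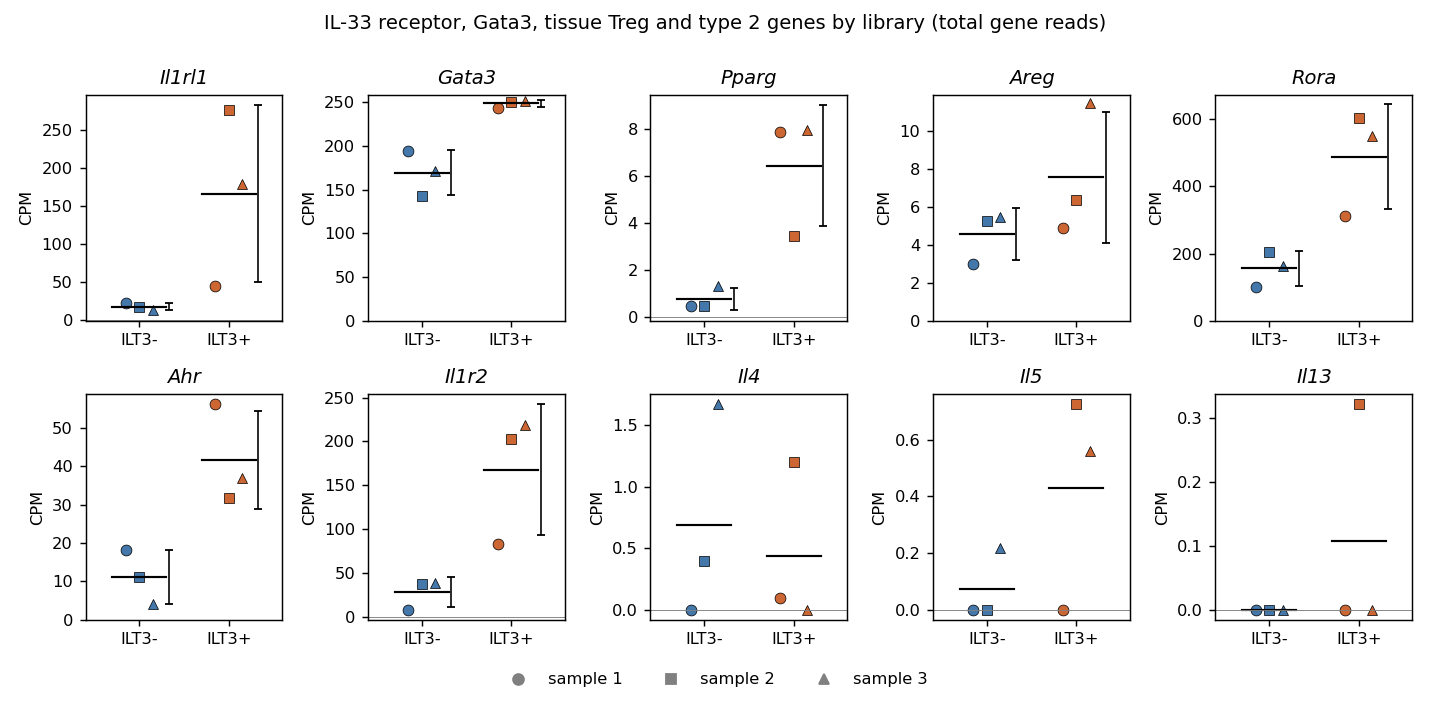
CPM of the 10 genes (y axis, own scale per gene) in the ILT3- (blue) and ILT3+ (orange) libraries; marker shape gives the sample number, the line is the mean, and the bar is the SD, drawn for the 7 tested genes. Il1rl1 lies between 13.5 and 22.9 CPM in ILT3- and between 45.2 and 276 CPM in ILT3+ cells, while Il4, Il5 and Il13 stay below 2 CPM in every library.

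Il1rl1 (chr1:40429570-40465415, plus strand, GRCm38) encodes ST2. It had 191, 222 and 186 total gene reads in ILT3- samples 1 to 3 and 482, 3433 and 2246 in ILT3+ samples 1 to 3, which is 22.9, 17.4 and 13.5 against 45.2, 276 and 179 CPM. Every ILT3+ library lay above every ILT3- library, but ILT3+ sample 1 was far closer to the ILT3- samples than to the other ILT3+ samples. The means were 18.0 ± 4.74 and 167 ± 116 CPM (SD, n = 3 each), a log2 fold change of 3.22 with an SE of 0.60 (adjusted p = 0.0393, edgeR), or 9.31-fold. Within numbers 1, 2 and 3 the log2 difference was 0.98, 3.98 and 3.73, the small difference being that of number 1. Without ILT3+ sample 1 the log2 fold change was 3.67 and the call held, and the part of the macrophage reads of that library in its low value was not tested. Exon reads gave a log2 fold change of 3.35 (adjusted p = 0.0399, edgeR), where 2.05% of tested genes were called. Reads across splice junctions were 39 in ILT3- and 429 in ILT3+ libraries together, and 14.8% of all reads of the gene lay in introns. The call was kept in 12 of 19 alternatives, with log2 fold changes of 2.66 to 3.91 and adjusted p values up to 0.177. Without ILT3- sample 1, 2 or 3 or ILT3+ sample 2 or 3 the gene no longer passed, nor with no expression filter or in limma voom.

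Il1r2 (chr1:40084768-40125219, plus strand) encodes a decoy receptor that binds IL-1 without signalling. It had 71, 482 and 528 reads in ILT3- and 883, 2516 and 2742 reads in ILT3+ samples 1 to 3, which is 8.53, 37.9 and 38.4 against 82.8, 202 and 219 CPM. Sample 1 was the lowest of its group on both sides, and the lowest ILT3+ library was above the highest ILT3- library. The log2 fold change was 2.56 with an SE of 0.59 (adjusted p = 0.0786, edgeR). With the block it was 2.70 (SE 0.21, adjusted p = 0.00218, edgeR), the differences within numbers being 3.28, 2.42 and 2.51. The row Gm16894 lies over the gene on the opposite strand and held 211 reads over all libraries, and the use of strand in the counting is not given in the sources used here. Il1r2 is also a neutrophil gene. Of the 11 other neutrophil markers 4 had no read in any library (S100a8, Cxcr2, Retnlg and Camp), and their sum was 0.550 to 6.37 CPM in ILT3- and 0.558 to 25.1 CPM in ILT3+ libraries. The part of neutrophils in the Il1r2 values was not tested.

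Both receptor genes sit in a cluster on chromosome 1 with Il1r1, Il1rl2, Il18r1 and Il18rap. Of the 10 genes of the IL-1 receptor family, all tested, 4 rose in ILT3+ cells and 6 did not pass, and the median log2 fold change was 2.76 against -0.02 over all tested genes. With the block 5 rose, and without single libraries 1 (ILT3- sample 3) to 4. Over all tested genes 1.96% rose, and 4.18% with the block. The count was 2 without ILT3+ sample 2 or 3. All 4 lie in the cluster: besides Il1rl1 these were Il1r1, the signalling receptor for IL-1, and both chains of the IL-18 receptor. Il1r1 had 0.481, 1.81 and 1.16 CPM in ILT3- and 53.8, 41.3 and 51.6 CPM in ILT3+ samples 1 to 3, a log2 fold change of 5.35 with an SE of 0.47 (adjusted p = 0.00326, edgeR), and stayed called in all 19 alternatives. The IL-18 receptor genes Il18r1 and Il18rap had 12.6 ± 3.85 and 12.1 ± 8.43 CPM in ILT3- and 98.4 ± 25.3 and 116 ± 19.2 CPM in ILT3+ cells (SD, n = 3), with log2 fold changes of 2.96 and 3.24 (adjusted p = 0.00698 and 0.0223, edgeR). In ILT3+ sample 1, where Il1rl1 was low, Il1r1 and Il18r1 had their highest values (53.8 and 126 CPM) and Il18rap its lowest of the ILT3+ group (98.2 CPM). Il1rl2, which encodes the IL-36 receptor, had 0, 6 and 14 reads in ILT3- and 99, 58 and 58 reads in ILT3+ libraries and did not pass (log2 fold change 3.55, adjusted p = 0.139, edgeR).

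Outside the cluster the family looked different. Il1rap, which encodes the coreceptor that ST2 needs, had 16.3, 18.8 and 30.9 CPM in ILT3- and 14.6, 13.5 and 25.4 CPM in ILT3+ samples, and the groups overlapped (log2 fold change -0.30, SE 0.39, adjusted p = 0.821, edgeR). Sigirr, which encodes a negative regulator of the family, had 152 ± 16.6 and 122 ± 19.6 CPM (SD, n = 3; log2 change -0.31, adjusted p = 0.557, edgeR). Il1rapl1 and Il1rapl2, receptors best known from neurons, had intron reads alone and 0 exon reads. Of the genes that flank the cluster, Map4k4 had a log2 fold change of -0.63 (adjusted p = 0.307) and Slc9a2 one of 3.09 (adjusted p = 0.0637, edgeR), the latter from 18 against 169 reads. Slc9a2 entered the test through the ILT3+ libraries alone.

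**Figure D2:**
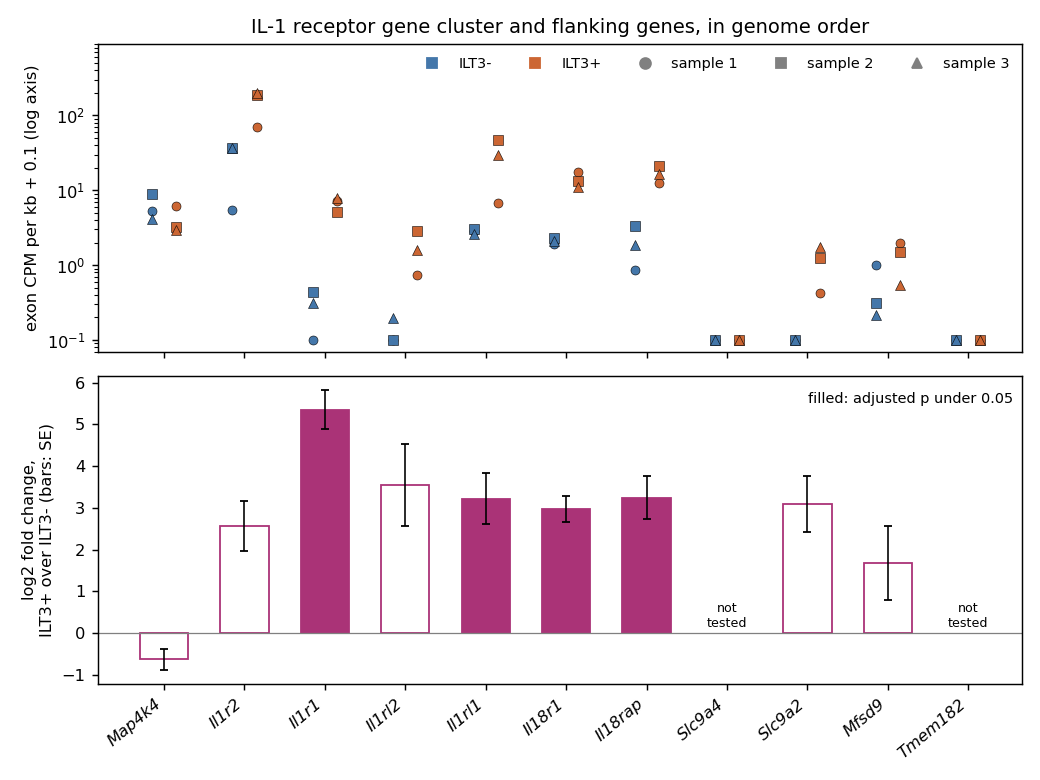
Genes of the IL-1 receptor cluster of chromosome 1 and its flanks in genome order: exon CPM per kb of exon plus 0.1, per library on a log axis (top), and the log2 fold change with its SE (bottom; filled bars have an adjusted p under 0.05). Il1r1, Il1rl1, Il18r1 and Il18rap are filled, and Il1r2, Il1rl2 and Slc9a2 have changes of 2.56 to 3.55 without passing. Slc9a2 entered the test through the ILT3+ libraries alone.

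No gene between ST2 and the nucleus passed in the fit on group alone. Of 25 tested genes of IL-33 receptor signalling 0 were called by edgeR, DESeq2 or limma voom, 2 had an unadjusted p under 0.05, and the median log2 fold change was 0.01. At the abundant end, Nfkbia, the inhibitor of NF-kB, had a log2 fold change of 0.23 (adjusted p = 0.681), and Tnfaip3, which encodes the brake A20, one of -0.66 (adjusted p = 0.354, and 0.0375 with the block, edgeR). Of 9 ligand and inhibitor genes in the files 3 had enough reads for a test and 0 were called by edgeR, DESeq2 or limma voom, 0 also at an unadjusted p under 0.05, Il1rn with a log2 fold change of 2.27 (adjusted p = 0.431) and Il18bp with one of 1.16 (adjusted p = 0.528, edgeR). The median log2 fold change of the 3 was 2.27. In edgeR 1 of them was called without both samples numbered 1, and 1 without ILT3- sample 1. Il33 itself had 7, 0 and 2 reads in ILT3- and 31, 8 and 1 reads in ILT3+ libraries and was not tested. Il1b, also not tested, had 0 reads over the ILT3- and 32 over the ILT3+ libraries, 26 of the latter in exons.

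Levels can be set side by side between genes when exon reads are divided by exon length. On that scale, in exon CPM per kb, Gata3 was the highest of the 10 in ILT3- cells (47.2 ± 4.06), followed by Il1r2 (26.3 ± 18.2), Rora (8.32 ± 4.26), Areg (3.73 ± 2.74), Il1rl1 (2.72 ± 0.196), Ahr (1.43 ± 1.83) and Pparg (0.199 ± 0.220; SD, n = 3). In ILT3- cells the range of Gata3 lay above that of Il1r2, and the ranges of the others overlapped from each gene to the next. In ILT3+ cells Il1r2 led with 152 ± 70.3, followed by Gata3 with 69.0 ± 2.72, Rora with 29.7 ± 13.4 and Il1rl1 with 27.7 ± 20.3, ahead of Areg (6.71 ± 5.11), Ahr (3.66 ± 1.90) and Pparg (1.94 ± 0.509; SD, n = 3). Here the range of Gata3 lay above that of Rora, and the other neighbours in this order overlapped. The 3 cytokine genes came last in both groups, at 0 to 0.279.

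Gata3 (chr2:9857078-9890034, minus strand) was abundant in both groups. It had 1622, 1817 and 2360 reads in ILT3- and 2601, 3117 and 3154 reads in ILT3+ samples 1 to 3, which is 195, 143 and 171 against 244, 251 and 252 CPM. The ILT3+ libraries lay close together and above all ILT3- libraries. The means of 170 ± 26.1 and 249 ± 4.14 CPM (SD, n = 3) gave a log2 fold change of 0.55 with an SE of 0.18 (adjusted p = 0.204, edgeR), and 0 of 19 alternatives called it, with log2 fold changes of 0.45 to 0.71 and a lowest adjusted p of 0.0508. Of its reads 81.7% were uniquely placed, and 3 other rows overlap the gene, with 11, 1 and 0 reads over all libraries. Of 20 tested genes of the GATA family and of Th2 regulators, 3 rose in ILT3+ cells, 2 fell and 15 did not pass, with a median log2 fold change of 0.07. Those that rose were Maf, a regulator of IL-4 and IL-10 (2.66, adjusted p = 0.0127), Runx3, which opposes GATA3 in Th1 and CD8 cells (2.98, adjusted p = 0.00980), and Tnfrsf8, which encodes CD30 (2.28, adjusted p = 0.0329). Satb1, a chromatin organiser, fell by 1.64 (adjusted p = 0.0159) and Ecm1, a secreted protein of Th2 cells, by 1.01 on the log2 scale (adjusted p = 0.0496, edgeR). The count of 5 fell to 0 without ILT3- sample 2 or 3 and to 1 without ILT3+ sample 2 or 3, and it was 3 without ILT3+ sample 1. With the block 5 rose and 3 fell. Among all tested genes 1.96% rose and 0.343% fell on group alone. With the block 4.18% of them rose, and 359 of the 13694 fell.

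Rora (chr9:68653786-69388246, plus strand) encodes a nuclear receptor of Tregs, Th17 cells and innate lymphoid cells. It had 833, 2608 and 2221 reads in ILT3- and 3315, 7522 and 6885 reads in ILT3+ samples 1 to 3, which is 100, 205 and 161 against 311, 605 and 549 CPM. As with Il1r2, sample 1 was the lowest on both sides and the groups did not overlap. The log2 fold change was 1.65 with an SE of 0.34 (adjusted p = 0.0545, edgeR). The differences within numbers, 1.64, 1.56 and 1.77, were nearly equal, and with the block the log2 fold change of 1.65 had an SE of 0.11 (adjusted p = 0.00132, edgeR). Introns held 41.7% of its reads. On exon reads the log2 fold change was 1.84 (adjusted p = 0.137, and 0.00187 with the block, edgeR), and Rora was called in 9 of 19 alternatives.

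Per1, Per2 and Cry2, repressors of the clock, had log2 fold changes of -0.65, -1.001 and -0.55 and did not pass (adjusted p = 0.278, 0.657 and 0.611, edgeR), and Per1 had an adjusted p of 0.0451 with the block. Those that rose included Nr1d1, which encodes the clock repressor REV-ERBa (log2 fold change 3.34, adjusted p = 0.0365), and Hlf, a transcription factor of the PAR family (adjusted p = 0.0239, edgeR). Hlf had 3 reads over the ILT3- against 149 over the ILT3+ libraries (ratio 48.5, with exact 95% limits of 16.3 and 238 for counting error), and passed the expression filter through the ILT3+ libraries alone. Neither gene passed when sample 2 or 3 of either group or ILT3+ sample 1 was left out, and Nr1d1 also missed the threshold without ILT3- sample 1 and in limma voom.

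Pparg (chr6:115361221-115490401, plus strand), the lipid-sensing nuclear receptor of fat-tissue Tregs, was sparse. It had 4, 6 and 18 reads in ILT3- and 84, 43 and 100 reads in ILT3+ samples 1 to 3, which is 0.481, 0.471 and 1.31 against 7.88, 3.46 and 7.98 CPM. The groups did not overlap, and ILT3+ sample 2 was the lowest of its group. The log2 fold change was 3.06 with an SE of 0.70 (adjusted p = 0.0746, edgeR), and 3.10 with the block (adjusted p = 0.0338, edgeR). Introns held 55.7% of the reads, and exon reads, 0, 3 and 9 against 38, 26 and 37, gave an adjusted p of 0.226, and of 0.163 with the block (edgeR). PPARG is also a macrophage factor, and the sum of the 19 other macrophage markers was 93.2 to 119 CPM in ILT3- and 2173, 209 and 195 CPM in ILT3+ samples 1 to 3, with none of the markers at 0 in all libraries. Of the 14 tested genes of that list, Pparg included, 0 were called by edgeR or limma voom and 3 by DESeq2, 10 had an unadjusted p under 0.05, and the median log2 fold change was 3.62. With the block 7 of them rose, where 4.18% of all tested genes did. Without ILT3+ sample 1 the log2 fold change of Pparg was 2.89. The part of macrophages in the Pparg values was not tested. Of 23 tested PPARG partners and targets 0 were called by edgeR, 3 by DESeq2 and 1 by limma voom, 3 had an unadjusted p under 0.05, and the median log2 fold change was 0.14. With the block 3 of the 23 rose, where 4.18% of all tested genes did. Ncor1, the nuclear corepressor and one of the most abundant of them, had a log2 fold change of 0.12 (adjusted p = 0.851, edgeR). Plin2, a lipid droplet protein, had a log2 fold change of 1.74 (adjusted p = 0.0648, and 0.0156 with the block), and Lpl, which encodes lipoprotein lipase, one of 4.80 (adjusted p = 0.0765, and 0.0232 with the block, edgeR) from 4 against 122 reads, 86 of the latter in sample 1. Lpl entered the test by its ILT3+ levels alone.

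Ahr (chr12:35497974-35535038, minus strand) had 152, 141 and 57 reads in ILT3- and 599, 396 and 462 reads in ILT3+ samples 1 to 3, which is 18.3, 11.1 and 4.14 against 56.2, 31.8 and 36.9 CPM. In contrast to Rora and Il1r2, sample 1 was the highest of its group on both sides. The means of 11.2 ± 7.06 and 41.6 ± 12.9 CPM (SD, n = 3) gave a log2 fold change of 1.91 with an SE of 0.52 (adjusted p = 0.132, edgeR), and one of 2.07 with the block (adjusted p = 0.0286, edgeR). Introns held 58.1% of its reads. Its exon reads, 131, 27 and 18 against 286, 160 and 135, gave a log2 fold change of 1.38 (adjusted p = 0.604, and 0.0834 with the block, edgeR). In exon CPM per kb ILT3- sample 1, with 3.54, lay above ILT3+ samples 2 and 3, with 2.77 and 2.36, so on exon reads the groups overlapped.

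Of 17 tested AHR pathway genes 4 rose and 13 did not pass, the median log2 fold change being 1.40, and 8 rose with the block. The shares over all tested genes were 1.96%, and 4.18% with the block. The count was 7 without ILT3- sample 1, 0 without ILT3- sample 2 or 3 and 1 without ILT3+ sample 2 or 3. Asb2, which encodes an ubiquitin ligase subunit, had 12.2 ± 4.83 against 198 ± 95.0 CPM (ILT3- against ILT3+; SD, n = 3; log2 change 4.03, adjusted p = 0.00953, edgeR). Il22, which encodes a cytokine of barrier defence, had 0, 6 and 3 reads in ILT3- and 84, 198 and 401 reads in ILT3+ libraries (6.17, adjusted p = 0.0194), and entered the test through the ILT3+ libraries alone. Gpr15, a receptor that guides T cells to the colon, had a log2 fold change of 1.99 (adjusted p = 0.0262), and Arnt2, a partner of bHLH-PAS factors, one of 3.87 (adjusted p = 0.0377, edgeR). The genes most used as readouts of AHR did not pass: Cyp1a1 had 0, 160 and 158 reads in ILT3- and 0, 521 and 405 reads in ILT3+ samples 1 to 3 (adjusted p = 0.771, and 0.0724 with the block), and Nqo1 6, 23 and 26 against 18, 187 and 250 reads (adjusted p = 0.166, and 0.0499 with the block, edgeR).

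**Figure D3:**
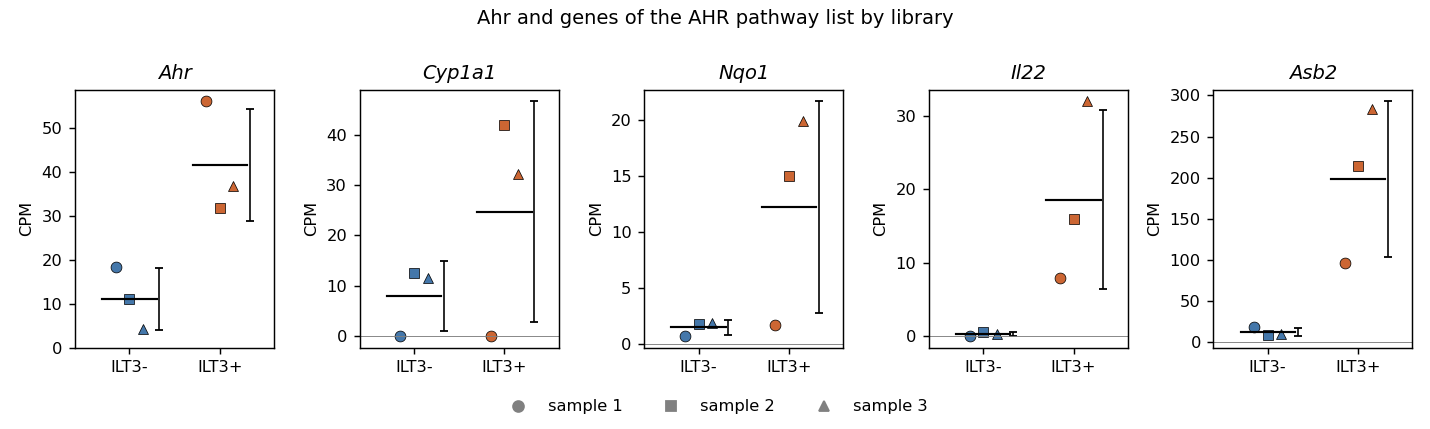
CPM of Ahr and of 4 genes of the AHR pathway list (y axis, own scale per gene) in ILT3- (blue) and ILT3+ (orange) libraries; marker shape gives the sample number, the line the mean and the bar the SD. Sample 1 is the highest of its group for Ahr and is at 0 for Cyp1a1 in both groups.

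Areg (chr5:91139615-91148432, plus strand) was low and the groups overlapped. It had 25, 67 and 75 reads in ILT3- and 52, 79 and 144 reads in ILT3+ samples 1 to 3, which is 3.00, 5.26 and 5.45 against 4.88, 6.35 and 11.5 CPM. ILT3+ sample 1 lay below ILT3- samples 2 and 3. The log2 fold change was 0.72 with an SE of 0.53 (adjusted p = 0.644, edgeR), with 0 of 19 alternatives calling it. Of 12 tested genes of EGF family ligands, their receptors and the proteases that shed them 0 were called by edgeR or limma voom and 1 by DESeq2, 1 had an unadjusted p under 0.05, and the median log2 fold change was 0.43. Adam17, which encodes the protease that releases AREG from the cell surface, had 91.1 ± 19.8 and 117 ± 13.4 CPM (SD, n = 3; log2 change 0.36, adjusted p = 0.531, edgeR).

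**Figure D4:**
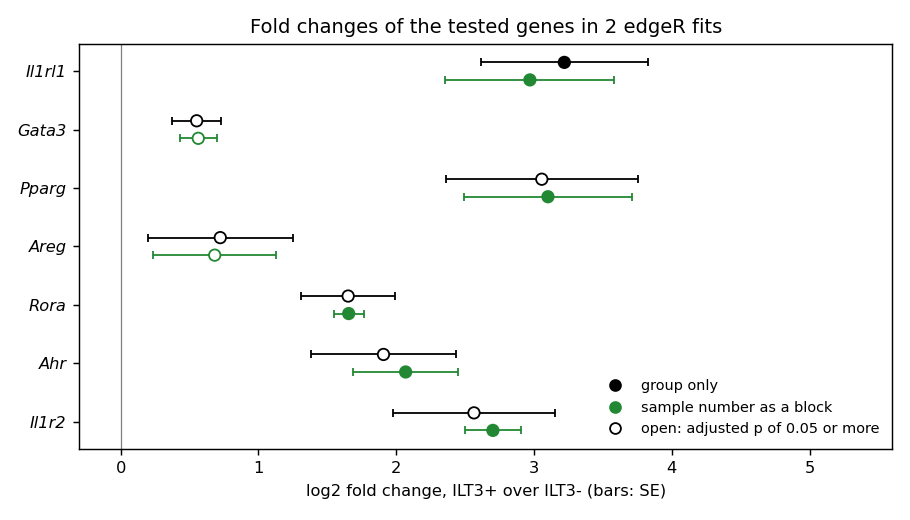
Log2 fold change, ILT3+ over ILT3-, with its SE (x axis) for the 7 genes with enough reads, from the edgeR fit on group alone (black) and with the sample number as a block (green); filled points have an adjusted p under 0.05. All 7 lie above 0; Il1rl1 is filled in both fits, Rora, Il1r2, Pparg and Ahr in the blocked fit, and Gata3 and Areg in neither.

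The type 2 cytokine genes were near zero in both groups. Il4 (chr11:53602982-53618669, minus strand) had 0, 5 and 23 reads in ILT3- and 1, 15 and 0 reads in ILT3+ samples 1 to 3. Introns held 88.6% of these reads, and exons 3 reads in ILT3- and 2 in ILT3+ libraries. Its ratio of ILT3+ over ILT3- was 0.558 over the summed libraries (exact 95% counting interval 0.282 to 1.07), so no difference was detectable at this depth. Il5 (chr11:53720794-53725106, plus strand) had 0, 0 and 3 reads against 0, 9 and 7, with 2 and 12 of them in exons, a ratio of 5.21 (exact 95% counting interval 1.49 to 27.9). The interval covers counting error and not the spread between libraries, and the row Gm12214 overlaps the gene on the other strand with 9 reads. Il13 (chr11:53631324-53634702, minus strand) had 0 reads in all ILT3- libraries, which allows up to 0.0862 CPM over that group, and 0, 4 and 0 reads in ILT3+ libraries. A floor of 3 reads in a single library corresponds to 0.218 to 0.360 CPM.

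Of 15 tested type 2 cytokines, receptors and signalling genes 0 were called by edgeR or limma voom and 1 by DESeq2, 3 had an unadjusted p under 0.05, with a median log2 fold change of 0.26. Il2rg, the shared chain of the IL-4 receptor, had a log2 fold change of 0.23 (adjusted p = 0.756). Jak1, a kinase of the IL-4 receptor, had one of -0.38 (adjusted p = 0.374, edgeR). Ccr4, a chemokine receptor of Th2 cells and Tregs, had 26.0 ± 13.4 and 90.1 ± 47.7 CPM (SD, n = 3; log2 change 1.80, adjusted p = 0.127, and 0.00356 with the block, edgeR). Of 9 tested genes at the cytokine locus of chromosome 11 and its flanks 0 were called by edgeR, 2 by DESeq2 and 1 by limma voom, and 3 had an unadjusted p under 0.05. With the block 2 passed, 1 in each direction, where 6.81% of all tested genes passed. Irf1, an interferon response factor of that list, had a log2 fold change of 0.40 (adjusted p = 0.570, edgeR). Csf2, the GM-CSF gene farther along that chromosome, had 2, 0 and 1 reads in ILT3- and 7, 74 and 117 reads in ILT3+ samples 1 to 3, with 168 of the 198 in exons. It did not pass the expression filter, and its ratio was 64.5 (exact 95% counting interval 21.7 to 315).

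Of 30 genes known from Tregs of non-lymphoid tissues, apart from the 10 and all tested, 12 rose in ILT3+ cells and 18 did not pass. Of the 30, 29 had a log2 fold change above 0 against 48.0% of all tested genes, and the median was 1.64. The list was chosen with earlier results of these data known, so these counts are no independent test. With the block 18 rose. Over all tested genes 1.96% rose on group alone and 4.18% with the block. The count was 4 without ILT3- or ILT3+ sample 2 and 3 without ILT3- or ILT3+ sample 3. The 12 were Prdm1 (Blimp-1, a regulator of effector Tregs; log2 fold change 3.64, adjusted p = 0.000435), Id2 (an inhibitor of E proteins; 2.96, adjusted p = 0.000906), Penk (proenkephalin; 2.90, adjusted p = 0.00187), Klrg1 (a receptor of differentiated Tregs; 3.12, adjusted p = 0.0127), Maf, Batf, Il10, Cxcr6, Ccr2, Fgl2, Icos and Arnt2 (edgeR). Penk had 71.1, 46.2 and 60.9 CPM in ILT3- and 427, 501 and 400 CPM in ILT3+ samples 1 to 3. Il10 had 14.3, 24.6 and 43.8 against 99.6, 132 and 226 CPM, with sample 1 the lowest on both sides as for Rora (log2 fold change 2.46, adjusted p = 0.0392, edgeR). Prdm1, Id2 and Penk stayed called in all 19 alternatives, unlike Il1rl1. Irf4, a partner of BATF, had 44.0, 206 and 350 against 88.0, 140 and 294 CPM (log2 fold change -0.20, adjusted p = 0.943), and Ccr8, a chemokine receptor of tissue Tregs, 47.7, 91.9 and 230 against 149, 160 and 262 CPM (0.62, adjusted p = 0.709, edgeR). Of 16 tested genes of T cell and Treg identity 0 were called by edgeR or limma voom and 2 by DESeq2, 4 had an unadjusted p under 0.05, with a median log2 fold change of -0.21. With the block 4 of the 16 fell, where 359 of all 13694 tested genes fell.

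**Figure D5:**
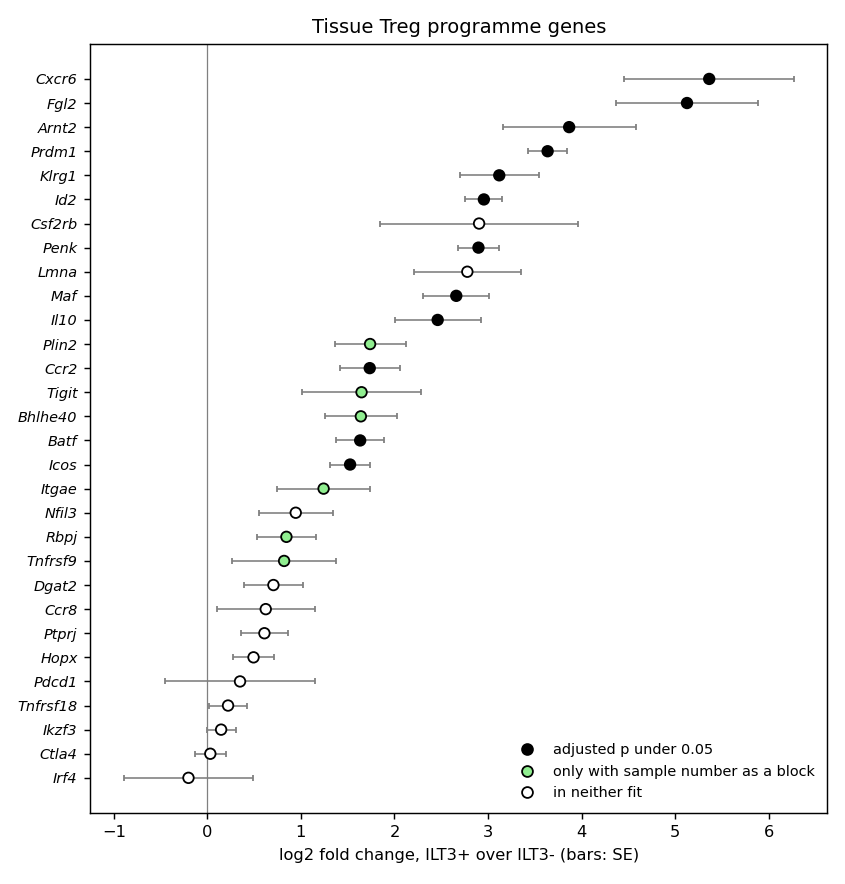
Log2 fold change, ILT3+ over ILT3-, with its SE (x axis) for 30 genes of the tissue Treg list, sorted by size; black points have an adjusted p under 0.05 on group alone, green points with the sample number as a block, white points in neither. All but Irf4 lie above 0, and 12 points are black.

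Several of the 10 genes are also expressed by other cells, and markers of some of these differed between the groups. With the 10 left out, 14 markers of innate lymphoid cells, group 2 included, summed to 250 to 303 CPM in ILT3- and 1336 to 1408 CPM in ILT3+ libraries. None was at 0 in all libraries, but Hs3st1, Ncr1, Nmur1 and Rnf128 did not pass the expression filter. Of the 10 tested ones 5 rose: Kit, Klrg1, Ly6a, Tyrobp and Klrb1b. For this and the marker counts below, the share of all tested genes that rose was 1.96%. Together with Il1rl1 these 5 made 6 called genes of the list. The count was 1 without ILT3- sample 3 or ILT3+ sample 2, 2 without ILT3- sample 2 or ILT3+ sample 3, and 5 without sample 1 of either group. Kit, the stem cell factor receptor gene, had 19.0 ± 5.51 and 179 ± 48.7 CPM (SD, n = 3; log2 change 3.22, adjusted p = 0.00520, edgeR), and Klrg1 and Ly6a are also expressed by Tregs. Of 14 mast cell and basophil markers 8 had no read in any library (Fcer1a, Mcpt4, Mcpt8, Tpsb2, Tpsab1, Cma1, Gata2 and Prss34), and their sum was 33.3 to 39.6 CPM in ILT3- and 160 to 247 CPM in ILT3+ libraries, of which Kit made up 125, 220 and 190 CPM in ILT3+ samples 1 to 3. The 15 dendritic cell markers summed to 565 to 2290 and 2235 to 3188 CPM, 7 of 11 tested ones rose, and Cd209a had no read. Of the 7, Batf3 and Ccl22 entered the test by their ILT3+ levels alone. Leaving out ILT3- sample 3 gave a count of 1, leaving out ILT3+ sample 2 gave 3, and leaving out either ILT3- sample 2 or ILT3+ sample 3 gave 4. Ccr7, also a tested dendritic cell marker, had negative log2 fold changes in all 19 alternatives (-1.96 to -0.99) and was called in 3. With the block 8 of the 11 rose and 1, Ccr7, fell, where 573 of all 13694 tested genes rose and 359 fell. Clec9a and Siglech were above the filter bound in 0 libraries, and Itgax in 1 ILT3+ library. Markers of B cells summed to 358 to 1012 and 847 to 1750 CPM, and those of CD8 T and NK cells to 16.3 to 43.1 and 29.8 to 67.1 CPM. Erythroid and platelet markers summed to 5.42 to 13.5 and 97.2 to 290 CPM, and stromal and epithelial ones to 149 to 337 and 103 to 195 CPM. The part of innate lymphoid cells and of dendritic cells in the values of Il1rl1, Gata3, Rora, Areg and Ahr was not tested.

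Over the 6 libraries, the genes whose log2(CPM + 1) followed that of Il1rl1 most closely among 13693 were Cxxc5 (Pearson r = 0.994), Ftl1 (0.993) and Npnt (0.991). They share with Il1rl1 a low ILT3+ sample 1, Npnt having 5.53, 6.05 and 3.85 against 21.7, 107 and 79.9 CPM. The r values describe 6 libraries that fall into the 2 sorted groups, and 62 genes had an r above 0.95.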

How the data were processed

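Per the labels, cDNA was amplified by SmartSeq V2 from 1 ng of RNA of integrity above 8 and tagged with Nextera XT. For each sample the authors deposited a table of read counts over 38924 genes. Per the file headers, these are total and unique counts of gene, exon, intron and junction reads. GRCm38 is the build in the submitters' processing notes. The sources used here name no aligner, counter or use of strand.

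Total gene reads were tested with edgeR 4.0.16 in R 4.3.3: genes past filterByExpr (10 reads per library, 15 in all) were scaled by TMM and fitted on group by robust quasi-likelihood, with Benjamini-Hochberg adjusted p called at 0.05. Library sizes times TMM factors gave CPM. Intervals and floors of 3 reads cover counting error only. Alternatives, 19 in all, used exon and unique reads, other normalizations and filters, DESeq2 1.42.0, limma 3.58.1 (voom), the sample number as a block, and fewer libraries.

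The deviations of same-numbered samples from the group means correlated at 0.454, 0.305 and 0.316, so by a bound of 0.1 the numbers were treated as pairs. The crossed pairs of numbers 2 and 3 also passed (0.138 and 0.201). No label states a pairing. edgeR's biological coefficient of variation fell from 0.427 to 0.318 with the block.

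The 10 genes and the pathway and marker lists were chosen with earlier results of these data known. Of 346 symbols 335 matched by name and 6 through RefSeq synonyms. The lists share genes. Counts over one list, of nuclear receptor and clock genes, are not reported here. Named genes were the 10, the IL-1 receptor family, Lilrb4, the 3 genes most correlated with Il1rl1, up to 4 called genes of smallest p per list, the 2 most abundant tested genes of pathway lists with fewer than 2 calls, and the 2 most abundant of marker lists. Not all genes that these rules gave are described, among them Axl, Cd74, H2-Aa, Ighm, Pdgfrb, Klrk1 and Car2. Further genes (Batf, Ccr2, Ccr4, Ccr8, Csf2, Cxcr6, Cyp1a1, Ecm1, Fgl2, Foxp3, Icos, Il10, Il1b, Il33, Irf4, Klrb1b, Lpl, Map4k4, Nqo1, Per1, Per2, Cry2, Plin2, Slc9a2, Tiparp and the markers listed without reads) were named after their values were seen. The same holds for Clec9a, Hs3st1, Il3, Itgax, Ncr1, Nmur1, Rnf128 and Siglech.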

Additional observations from a re-analysis of the deposited data

How the results depend on the processing

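All alternatives gave positive log2 fold changes for the 7 tested genes. Of the 10 genes, 1 was called. The count was 2 on unique gene reads and with upper quartile factors, 5 in DESeq2, 4 without both samples numbered 1, and 0 to 2 without single samples. With the replicate block it was 5, since Rora, Il1r2, Pparg and Ahr joined Il1rl1 and no other call among the 10 changed, and 3 with the block on exon reads, where Pparg and Ahr no longer passed. With no filter and in limma voom the 1 call was Rora in place of Il1rl1. The 2 calls without ILT3+ sample 1 were Il1rl1 and Rora, and edgeR called none of the 10 without ILT3- sample 1, 2 or 3 or ILT3+ sample 2 or 3. Over all genes 316 were called, against 204 on unique exon reads, 951 in DESeq2, 932 with the block, 700 with the block on exon reads, 786 without both samples numbered 1 and 31 to 322 without single samples. Of the calls 85.1% were higher in ILT3+ cells, but 73.3% in DESeq2 and 61.5% with the block. Genes of the pathway lists called numbered 26, against 46 in DESeq2, 50 with the block, 44 with the block on exon reads, 50 without both samples numbered 1 and 4 to 26 without single samples. The sign turned for Il1rap without single samples (-0.64 to 0.028, the latter without ILT3- sample 3) and for the macrophage gene Vcam1 (-0.44 to 5.30). Fewer samples were left in those fits, and otherwise the cause was not tested. Levels per kb over gene length instead of exon length were lower, Il1rl1 having 0.501 in ILT3- cells. With no filter the 3 cytokine genes were tested and not called.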

Other observations

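The libraries numbered 1 carried Ahr without a read of Cyp1a1, the cytochrome gene that AHR is best known to induce. In sample 1 Ahr reached 18.3 (ILT3-) and 56.2 CPM (ILT3+), the highest of each group, where Cyp1a1 had 0 reads in both. Samples numbered 2 and 3 had 160 and 158 Cyp1a1 reads in ILT3- and 521 and 405 in ILT3+ cells. Within the ILT3+ group alone, Tiparp, a target and repressor of AHR, was lowest in sample 1, with 20.9 CPM against 69.1 and 89.8 CPM. Nqo1 had 18 reads in that sample against 187 and 250. The ILT3- values of Tiparp are not given here. In exons, ILT3- sample 1 had 131 of the 176 Ahr reads of its group.

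Il1r1 was nearly absent from ILT3- cells, with 43 reads over the group against 1733 in ILT3+ cells. It was the member of the IL-1 receptor cluster that stayed called in every alternative run, while the decoy receptor gene Il1r2 was already at 28.3 ± 17.1 CPM in ILT3- cells (SD, n = 3). In every ILT3- library Il1r2 exceeded Il1r1 in exon reads per kb, and in ILT3+ cells the values were 152 ± 70.3 and 6.60 ± 1.38 exon CPM per kb (SD, n = 3).

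Among Il4, Il5, Il13 and Csf2, all on chromosome 11, Csf2 had the most reads in ILT3+ cells. It had 7, 74 and 117 in samples 1 to 3, where Il13 had 0, 4 and 0, Il5 0, 9 and 7 and Il4 1, 15 and 0. Il3, also on that chromosome, had 0 reads over the ILT3- and 2 over the ILT3+ libraries. Further cytokine genes of that chromosome were not compared here.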
